A study of Homo sapiens with 38 samples.

Results

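The HOX genes encode homeodomain transcription factors that give cells along the head-to-tail axis of the embryo their positional identity. In the human genome they stand in 4 clusters, HOXA to HOXD, and within a cluster the order of the genes follows the order in which they act: members with low paralogue numbers act in the hindbrain and neck, and members with high numbers in the trunk, limbs and hindgut. Their activity is held by Polycomb repressors and opened by Trithorax methyltransferases, and adult tissues, colon included, keep part of the embryonic pattern. Members were taken from the deposited expression table by name, as HOX followed by a letter from A to D and a number. All 39 names found were unique, out of 25504 uniquely named genes.

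RNA was measured in RKO, an established human colorectal cancer cell line, with 1 library in each of 8 conditions. Cells received DMSO, the LSD1 inhibitor NCD38, or NCD38 joined through a β-alanine linker to a pyrrole-imidazole polyamide, for 4 or 30 days. Each inhibitor was at 2 µM by the labels, and contained 0.1% DMSO per the methods of the 30-day treatment. In that treatment, medium was renewed and compound added every 5 days. Day 4 came before a first such renewal, so renewal also differs between the days. The methods print another unit of dose for day 4, and the labels' dose was taken for both days. The conjugates were NCD38-β2P4 (P4_NCD38 in the labels, polyamide Py-Py-Py-Py), built to bind runs of A and T, and NCD38-β2PIPP (PIPP_NCD38, polyamide Py-Im-Py-Py), built to bind a CG between A or T bases. LSD1 removes methyl groups from lysine 4 of histone H3. The unjoined polyamides P4 and PIPP have no RNA library among the data used here, so a conjugate could be compared with DMSO and with NCD38 only. Since nothing marks separate cultures, the spread between libraries covers the change of treatment or day together with technical error.

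Values are FPKM, fragments scaled by transcript length and by the mapped fragments of the library, and values of a gene are given in the order DMSO, NCD38, NCD38-β2P4 and NCD38-β2PIPP. A mean of at least 1 FPKM over the 8 libraries was taken as expressed, 0.1 to below 1 as low and less as silent. The depth behind the values was estimated at 12400000 to 22900000 fragments per library. Of 11 colorectal epithelium markers, EPCAM, KRT8 and KRT18 were expressed, the other 8 were below 0.1 FPKM on average, and KRT20, VIL1 and GPA33 were listed at 0 in every library. Markers of blood, endothelium and fibroblasts were not expressed (0 of 8), with 5 at 0 throughout and none above 0.0152 FPKM.

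RKO cells expressed 26 of the 39 HOX genes. A further 5 were low and 8 were silent, of which HOXB1, HOXC12, HOXD10 and HOXD11 were listed at 0 in all 8 libraries. The HOXB cluster was the most widely used, with 9 of 10 members expressed, followed by HOXC with 7 of 9, HOXA with 7 of 11 and HOXD with 3 of 9. By position, 13 of 15 central members (paralogues 4 to 8) were expressed and none was silent, against 4 of 8 anterior members (1 to 3) and 9 of 16 posterior members (9 to 13), where 6 were silent. Asking for 1 FPKM in every library left 19 expressed members, and asking for it in any library gave 27. Summed over members, HOX transcripts reached 140 to 187 FPKM per library, to which HOXB gave 39.5% to 48.0%, HOXA 27.1% to 38.3%, HOXC 14.5% to 18.1% and HOXD 5.02% to 8.06%.

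The polyamides were made to read short DNA patterns, so reference promoter windows of HOX members are shown for those patterns. RefSeq (GRCh38.p14) gave 26 distinct windows, 250 bases before to 50 after a start, for 20 of the 39 members, 7 of them of HOXA3 alone. Of HOXB only the silent HOXB1 had a window, and of HOXC only HOXC4 and HOXC5. Most expressed members had no window, so the shares below describe mainly HOXA and HOXD. Each pattern is its own reverse complement in these base classes, so 1 search covered both strands. A run of 6 A or T bases, the pattern of NCD38-β2P4, was in 23 of 26 windows (88.5%) against 61.2% of all 34943 distinct windows. A CG with 2 A or T bases on each side, the pattern of NCD38-β2PIPP, was in 9 of 26 (34.6%) against 15.9%. Capitals mark both patterns in windows of HOXC4 and HOXC5, which share 1 window, of HOXA9, the richest in A and T runs, and of HOXD8, which holds neither pattern. HOXC4 had the largest tested difference to DMSO, but with NCD38, which carries no polyamide. HOXA9 was the member farthest above DMSO with a conjugate, but this was NCD38-β2PIPP on day 4 (log2 ratio of FPKM + 1 of 0.87). With NCD38-β2P4 it was at 0.25 on day 4 and 0.18 on day 30. The windows were chosen partly by these values, and a link between pattern and response was not tested. The windows lie at chr12:54016638-54016937 on the plus strand, chr7:27165488-27165787 on the minus strand and chr2:176129455-176129754 on the plus strand.
HOXC4 and HOXC5: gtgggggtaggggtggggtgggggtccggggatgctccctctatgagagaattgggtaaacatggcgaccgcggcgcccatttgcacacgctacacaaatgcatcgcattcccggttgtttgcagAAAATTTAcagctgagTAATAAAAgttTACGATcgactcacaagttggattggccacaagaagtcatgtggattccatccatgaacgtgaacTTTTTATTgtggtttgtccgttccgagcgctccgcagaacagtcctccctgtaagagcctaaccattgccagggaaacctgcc
HOXA9: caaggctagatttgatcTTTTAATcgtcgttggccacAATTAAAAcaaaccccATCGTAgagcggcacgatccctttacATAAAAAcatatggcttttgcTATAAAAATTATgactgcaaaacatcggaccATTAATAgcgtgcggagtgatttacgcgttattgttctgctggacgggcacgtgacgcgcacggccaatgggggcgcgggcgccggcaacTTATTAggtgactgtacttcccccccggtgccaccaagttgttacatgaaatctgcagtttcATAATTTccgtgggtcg
HOXD8: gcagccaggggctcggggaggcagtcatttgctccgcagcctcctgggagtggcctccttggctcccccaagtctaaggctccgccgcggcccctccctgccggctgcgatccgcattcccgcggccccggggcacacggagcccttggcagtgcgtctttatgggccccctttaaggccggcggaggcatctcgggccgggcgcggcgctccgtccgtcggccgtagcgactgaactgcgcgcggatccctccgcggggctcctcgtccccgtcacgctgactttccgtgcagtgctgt
A match describes the reference sequence only, and binding was not measured here.

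The HOXA cluster (GRCh37 chromosome 7, minus strand, HOXA2 to HOXA13 at 27139973 to 27239710) held its highest levels in HOXA7, HOXA9 and HOXA10. HOXA9, which acts in blood stem cells and is known from leukaemia, was at 9.72, 4.82, 11.8 and 18.6 FPKM on day 4 and at 18.1, 23.4, 20.6 and 17.3 FPKM on day 30. The NCD38 library was the lowest of day 4 and the highest of day 30, and the days overlapped through NCD38-β2PIPP. HOXA7 was at 17.1, 18, 19.5 and 17.1 FPKM on day 4 and at 9.19, 12.5, 8.85 and 9.84 FPKM on day 30, every day 30 library lower. HOXA10, needed for the uterus and also active in blood, was at 4.82, 2.12, 6.59 and 6.04 FPKM on day 4 and at 9.97, 10.9, 7.91 and 8.31 FPKM on day 30, every day 30 library higher. HOXA5, a regulator of lung and cervicothoracic development, was at 3.76, 2.31, 4.89 and 4.83 FPKM on day 4 and at 7.14, 9.03, 7.38 and 7.42 FPKM on day 30. Its days did not overlap either. HOXA11, a limb and uterus gene, was at 7.75, 5.39, 6.1 and 7.37 FPKM on day 4 and at 6.7, 7.81, 6.01 and 5.41 FPKM on day 30, with the days mixed. HOXA4 was at 3.3, 3.94, 3.33 and 2.93 FPKM on day 4 and at 3.92, 3.21, 4.27 and 3.77 FPKM on day 30, also mixed. HOXA3 (0.0347 to 0.199 FPKM), HOXA6 (0 to 0.494 FPKM) and HOXA13 (0.212 to 0.909 FPKM) were low, and HOXA2 (0 to 0.174 FPKM) was silent.

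In the HOXB cluster (chromosome 17, minus strand, 46605888 to 46806112), HOXB9 and HOXB7 had the highest mean levels of all members. HOXB9, a posterior gene that patterns the ribs, was at 22.6, 20.9, 26.2 and 24.2 FPKM on day 4 and at 13.1, 20, 11.8 and 10.9 FPKM on day 30. All day 30 libraries were lower, with NCD38 closest to day 4. HOXB7 was at 17.1, 15.4, 16.8 and 15.7 FPKM on day 4 and at 20.1, 23.7, 18.6 and 17.3 FPKM on day 30, all slightly higher. HOXB2, which acts in the hindbrain, was at 14.7, 12.4, 17 and 18.1 FPKM on day 4 and at 9.94, 16.4, 10.3 and 9.39 FPKM on day 30. Only NCD38 on day 30 reached into the range of day 4. HOXB4, known for expanding blood stem cells, was at 6.46, 5.46, 6.35 and 5.42 FPKM on day 4 and at 3.68, 5.11, 4.08 and 4.33 FPKM on day 30. HOXB6 was at 4.23, 2.66, 5.17 and 6.19 FPKM on day 4 and at 4.81, 5.63, 4.54 and 4.42 FPKM on day 30. HOXB8 was at 3.93, 4.31, 4.57 and 4.01 FPKM on day 4 and at 3.75, 3.73, 3.65 and 3.3 FPKM on day 30. The days did not overlap for HOXB4 and HOXB8, both lower on day 30, and did for HOXB6. HOXB13, the most posterior member of the cluster and a gene of prostate and hindgut, was at 4.84, 4.83, 3.89 and 3.84 FPKM on day 4 and at 1.36, 1.69, 1.64 and 1.46 FPKM on day 30, all lower. HOXB3 was at 1.6, 0.982, 1.89 and 2.31 FPKM on day 4 and at 2.54, 3.2, 2.93 and 2.99 FPKM on day 30. HOXB5 was at 1.05, 0.302, 1.11 and 1.17 FPKM on day 4 and at 1.41, 2.68, 1.42 and 1.89 FPKM on day 30. Both were higher on day 30 without overlap, and in both NCD38 was the lowest library of day 4 and the highest of day 30. HOXB1, a hindbrain gene, was listed at 0 in all libraries.

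In the HOXC cluster (chromosome 12, plus strand, 54332615 to 54449814), the central genes HOXC6 and HOXC8 led. HOXC6 was at 7.21, 4.92, 8.99 and 7.67 FPKM on day 4 and at 5.65, 6.21, 5.12 and 5.61 FPKM on day 30. HOXC8, a thoracic patterning gene, was at 4.95, 3.78, 6.23 and 5.66 FPKM on day 4 and at 8.78, 7.37, 7.37 and 6.09 FPKM on day 30. In both the days overlapped. HOXC11 was at 6.33, 5.14, 4.95 and 5.62 FPKM on day 4 and at 3.92, 4.61, 3.99 and 3.34 FPKM on day 30. HOXC5 was at 5.49, 5.57, 4.73 and 3.7 FPKM on day 4 and at 4.02, 3.55, 3.56 and 3.37 FPKM on day 30. HOXC10, active in the lumbar spinal cord and hindlimb, was at 2.96, 3.26, 3.55 and 3.1 FPKM on day 4 and at 1.79, 2.5, 2.19 and 1.65 FPKM on day 30. HOXC10 and HOXC11 were lower in every day 30 library, and HOXC5 overlapped through NCD38-β2PIPP on day 4. HOXC9 was at 1.11, 0.783, 0.38 and 0.687 FPKM on day 4 and at 2.04, 2.34, 1.6 and 1.68 FPKM on day 30, higher in every day 30 library. HOXC4, which is active in lymphocytes, was at 0.878, 0.198, 0.645 and 1.21 FPKM on day 4 and at 1.7, 0.526, 1.67 and 1.71 FPKM on day 30. The NCD38 library was the lowest of each day, and the other 3 libraries of day 30 lay between 1.67 and 1.71 FPKM. HOXC13, a hair and nail gene, was silent at 0 to 0.0734 FPKM, which equals 0 to 4 fragments per library, and HOXC12 was listed at 0.

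In the HOXD cluster (chromosome 2, plus strand, 176957449 to 177055635), expression was limited to HOXD9, HOXD8 and HOXD3. HOXD9 was at 6.81, 8.89, 7.25 and 6.87 FPKM on day 4 and at 3.85, 4.87, 3.52 and 3.54 FPKM on day 30, lower in every day 30 library. HOXD8 was at 0.784, 0.893, 1.22 and 1.29 FPKM on day 4 and at 2.41, 2.41, 2.41 and 2.4 FPKM on day 30, higher in every day 30 library and nearly equal among them. That closeness is tighter than counting error, as given at the end. HOXD3 was at 1.09, 0.933, 1.39 and 1.57 FPKM on day 4 and at 0.99, 1.28, 0.847 and 0.999 FPKM on day 30, with overlap. HOXD1 (0.0681 to 0.167 FPKM) and HOXD4 (0.194 to 1.16 FPKM) were low. The posterior genes that shape the limb and digits were silent: HOXD10 and HOXD11 at 0, HOXD12 at 0 to 0.216 FPKM and HOXD13 at 0 to 0.0348 FPKM, in which 1 fragment was found in each of 2 libraries.

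These levels share limits of annotation. On GRCh37, HOXC4 overlaps HOXC5 and HOXC6 on the same strand, HOXA9 overlaps HOXA10, HOXB3 overlaps HOXB4, HOXB5 and HOXB6, and HOXB7 overlaps HOXB8 and HOXB9, so how the authors' estimation split shared reads among them is uncertain. Antisense genes run opposite many members, such as HOXA-AS3 across HOXA4 to HOXA7, and whether strand was used in estimation is not given in the sources used here. For 21 of the 35 members above 0, all values stood within 0.05 of whole fragments, for example 259 fragments of HOXB13 in DMSO on day 4 and 76 on day 30. The worth of 1 fragment was above that expected from the GENCODE transcript by a factor of 1.52 for HOXA6, 1.64 for HOXC11, 2.0 for HOXA13 and 3.87 for HOXD12, and the cause was not tested.

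Day 30 was set against day 4 with the treatment as a block, so that each treatment served as a pair. Of 26 expressed members, 5 were higher and 5 lower on day 30 at an adjusted p below 0.05 (limma, 38.5% called), against 61.9% of the 10865 expressed genes (30.2% higher and 31.7% lower). On these values the share of members called was thus below that of all expressed genes. With the GC trend removed, as given below, the order turned. Then 18 of 26 members were called, against 28.1% of all genes called higher and 27.8% called lower. HOXA5 (difference 0.85 ± 0.23 SE on the log2(FPKM + 1) scale, adjusted p = 0.023), HOXC9 (0.75 ± 0.15, adjusted p = 0.0074) and HOXD8 (0.74 ± 0.15, adjusted p = 0.0079) rose most among those called. HOXB3 (0.56 ± 0.19, adjusted p = 0.047) and HOXC4 (0.46 ± 0.15, adjusted p = 0.036) rose less. HOXC9 and HOXC4 averaged 0.74 and 0.733 FPKM on day 4, and passed the filter only through day 30, the day on which they were called higher. Their calls therefore depend on that filter and are no separate support for a rise. HOXB13 was lowest against day 4 (-1.07 ± 0.15, adjusted p = 0.0025), followed by HOXA7 (-0.78 ± 0.14, adjusted p = 0.006), HOXD9 (-0.78 ± 0.14, adjusted p = 0.0052), HOXB9 (-0.74 ± 0.21, adjusted p = 0.025) and HOXC10 (-0.48 ± 0.15, adjusted p = 0.034). In all 10 the sign was the same in 4 of 4 treatments, which adds no support, since the calls came from the same pairs. HOXA10, HOXB4, HOXB5, HOXB7, HOXB8, HOXC5, HOXC8 and HOXC11 also kept their sign in 4 of 4 without being called. An exact two-sided paired permutation test over the 4 treatments cannot go below p = 0.125, which is what each of the 10 called genes gave.

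By cluster, HOXA had 1 higher and 1 lower of 7, HOXB 1 and 2 of 9, HOXC 2 and 1 of 7 and HOXD 1 and 1 of 3. By position, 4 of 9 posterior members were lower and 1 was higher, while central members gave 3 higher and 1 lower of 13 and anterior members 1 higher and 0 lower of 4. Of all expressed genes, 30.2% were called higher and 31.7% lower. The posterior counts did not hold with the GC trend removed, as given below. HOXB13 then stayed lower, HOXB9, HOXC10 and HOXD9 were not called, and HOXA9, HOXA10, HOXA11 and HOXC9 were called higher. Paralogues of group 9 did not move together, with HOXC9 higher, HOXB9 and HOXD9 lower and HOXA9 at 0.89 ± 0.35 without passing the test (adjusted p = 0.071). HOXA10, its neighbour, had 0.87 ± 0.31 (adjusted p = 0.055). The ranges of the days were apart for 15 of 26 members (57.7%), 7 above and 8 below, against 62.6% of all expressed genes, of which 29.5% lay above and 33.1% below. HOXC4 was called although its days overlapped, and HOXB5, HOXC4 and HOXC9 were below 1 FPKM on average on 1 of the days, so they entered the test through the other day.

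**Figure D1:**
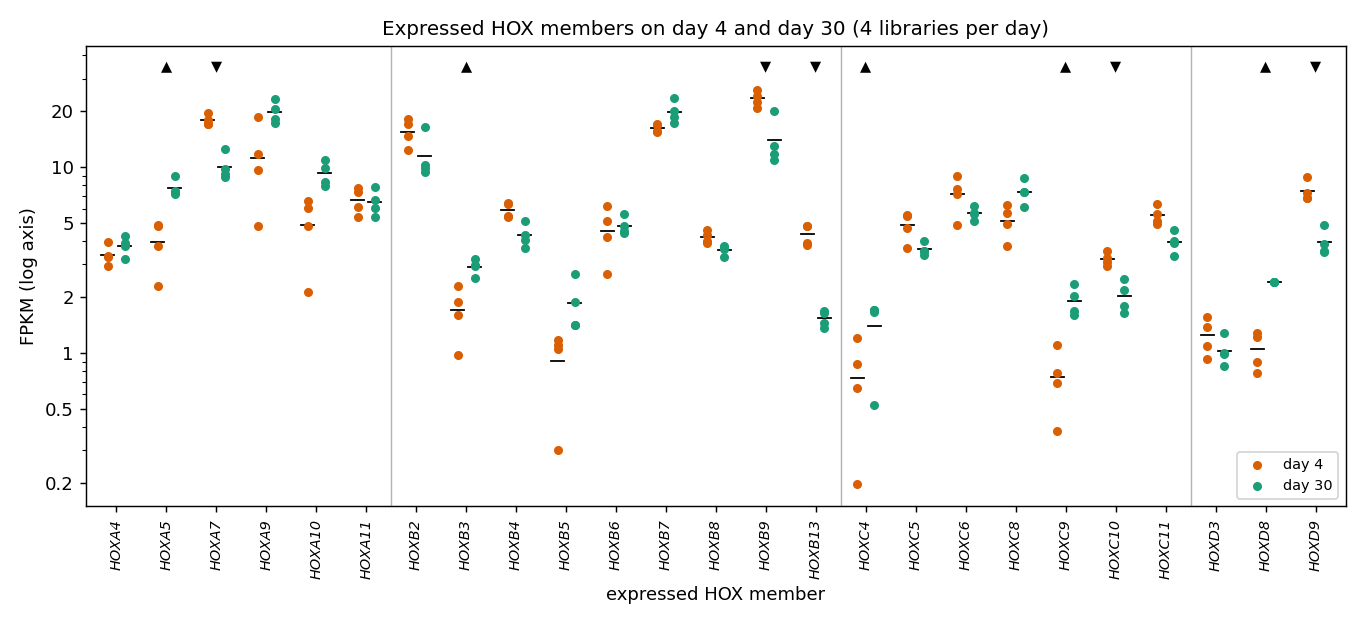
FPKM (log axis) of expressed members in the 4 libraries of day 4 (orange) and of day 30 (green), with the mean as a black bar and grey lines between clusters. An upward triangle marks a member called higher on day 30 and a downward triangle a member called lower, 5 of each.

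The day difference moved with base composition across the transcriptome. In 5 equal bins of transcript GC content, medians of expressed genes went from 1.34 in the most AT-rich bin through 0.56, -0.22 and -0.66 to -0.74 in the most GC-rich, with a Spearman coefficient of -0.68 over 10172 genes. Over the 26 members it was -0.31, at a median GC content of 54.5%. With the GC trend of each library removed, 16 members were higher and 2 lower on day 30, against 28.1% and 27.8% of all genes. HOXA5, HOXB3, HOXC4, HOXC9, HOXD8 and HOXB13 were called in both settings. HOXB13 was then at -0.35 (adjusted p = 0.041), and HOXA7 (-0.19), HOXB9 (-0.12), HOXC10 (0.11) and HOXD9 (0.02) were no longer called. HOXA10 reached 1.46 and HOXA9 1.02, both called. The labels name both a NextSeq and a HiSeq instrument without saying which libraries ran on which, so the day and any preparation or sequencing batch cannot be told apart. Among the epithelial markers EPCAM also differed, at 0.0922 to 0.867 FPKM on day 4 and 3.94 to 6.53 FPKM on day 30 (2.11 ± 0.16, adjusted p = 0.00055), while the 11 markers summed to 87.1 to 137 FPKM on day 4 and 111 to 143 FPKM on day 30. EPCAM passed the filter only through day 30, the day on which it was called higher, so its call depends on that filter. Its part in the day differences of the members was not tested.

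**Figure D2:**
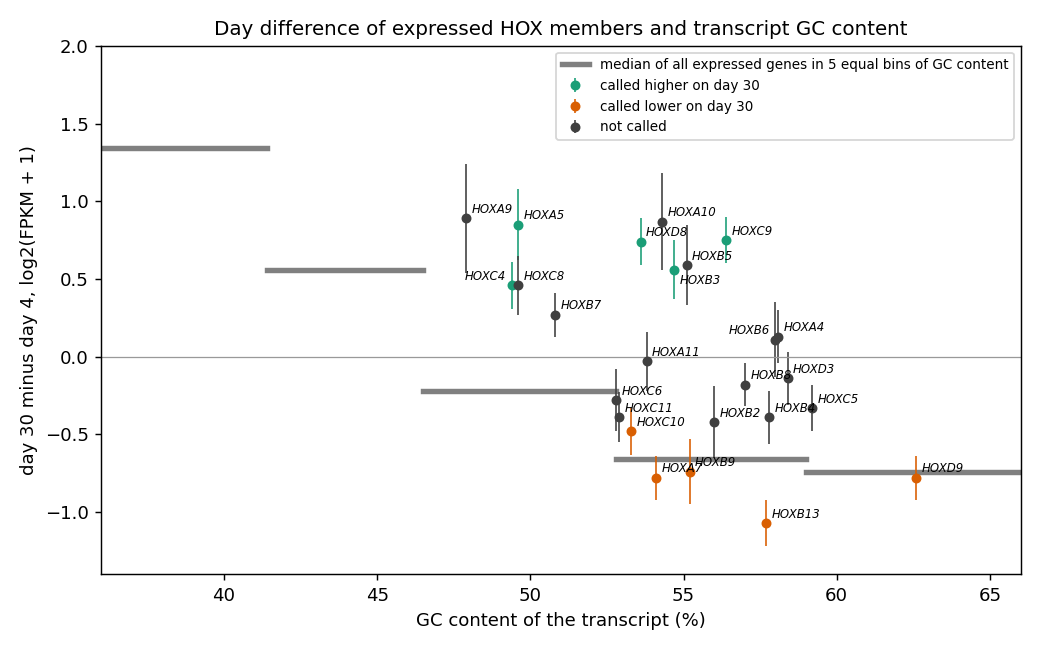
Day 30 minus day 4 on the log2(FPKM + 1) scale, with its SE, against the GC content of the transcript for expressed members. Grey bars are the medians of all expressed genes in 5 equal bins of GC content (the outer bars run past the axis). Members called higher lie above the bar of their bin, as any positive difference there would, since those bars are negative. HOXC10, called lower (-0.48), also lies above its bar (-0.66).

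Inhibitor and DMSO were then compared at the labelled dose, using the libraries of day 4 and day 30 in 1 fit with day as a blocking term. The 3 inhibitors share the DMSO libraries. No member was called for NCD38, NCD38-β2P4, NCD38-β2PIPP or any inhibitor against DMSO (limma, 0 of 26 each), where 0.0368%, 0.0184%, 0.0184% and 0.0092% of all expressed genes were called. Of the members, 1 was below an unadjusted p of 0.05 for NCD38 and 0 for the others, and of all genes 145 for NCD38, 32 for NCD38-β2P4, 62 for NCD38-β2PIPP and 59 for any inhibitor. The median half-width of the unadjusted 95% interval of a member was 0.59 for each inhibitor and 0.44 for any inhibitor. For a typical member, differences within those bounds would not reach an unadjusted p of 0.05. A call needed p to pass after adjustment over all expressed genes, so differences beyond those bounds could also go undetected. HOXC4, at -0.73 with NCD38, lay beyond them and was not called.

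The member below 0.05 was HOXC4, whose level was lower with NCD38 than with DMSO (-0.73, 95% interval -1.25 to -0.22, adjusted p = 1). The sign was the same in 2 of 2 days, which adds no support, since the fit used the same pairs. With NCD38 it was at 0.198 FPKM on day 4 and 0.526 FPKM on day 30. HOXC4 thus passed the filter only through the other treatments, where it was higher, and its difference depends on that filter. With NCD38-β2P4 its difference to DMSO was -0.1 (-0.62 to 0.41) and with NCD38-β2PIPP 0.12 (-0.39 to 0.63). The added 1 compresses low values: without it, the log2 ratio of HOXC4 to DMSO was -1.69 on day 30 (counting interval -2.62 to -0.84) and -2.15 on day 4 (-4.13 to -0.62), from an estimated 15 against 53 and 4 against 26 fragments. On the scale with the added 1, HOXC4 was at -0.82 on day 30 and -0.65 on day 4, and with the GC trend removed at -0.88 and -0.15. These fragments were estimated from transcript length, and the intervals cover counting error only.

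The 3 pairs of compounds that differ by the joined polyamide compared were NCD38-β2P4 and NCD38-β2PIPP against NCD38 and NCD38-β2PIPP against NCD38-β2P4. No member passed in any pair (limma, 0 of 26 each, against 0.0092%, 0.0184% and 0.0276% of all expressed genes). HOXC4 was the only member below an unadjusted p of 0.05, where it was higher with NCD38-β2P4 than with NCD38 by 0.63 (95% interval 0.12 to 1.15, adjusted p = 0.71) and with NCD38-β2PIPP by 0.85 (0.34 to 1.37, adjusted p = 0.53). Of all genes, 352, 692 and 34 were below that p. HOXC4 passed the filter only through treatments other than NCD38, so its differences to NCD38 depend on that filter too. For the 2 conjugates against each other, HOXC4 differed by 0.22 (-0.29 to 0.74), and the members' differences ran from -0.21 to 0.22 with a median half-width of 0.59. For HOXA9 the interval between conjugates was wide, -1.04 to 1.42 around 0.19.

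Within a day, each inhibitor library was set against the DMSO library of that day, with no replicate and no test. No member reached a 2-fold change of FPKM + 1 in any of the 6 comparisons. The share of all expressed genes 2-fold higher or lower was 1.0% and 0.653% for NCD38 on day 30, 0.874% and 4.54% on day 4, 0.506% and 0.497% for NCD38-β2P4 on day 30, 1.1% and 0.81% on day 4, 0.81% and 0.359% for NCD38-β2PIPP on day 30, and 10.3% and 0.838% on day 4.

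NCD38 on day 30 gave 20 of 26 members above DMSO (59.0% of all genes) with a median log2 ratio of 0.20, against 0.06 for all genes. HOXB2 was at 16.4 against 9.94 FPKM (0.67), HOXB5 at 2.68 against 1.41 FPKM (0.61) and HOXB9 at 20 against 13.1 FPKM (0.57), while HOXC4 was lowest (-0.82). On day 4 NCD38 gave 7 of 26 above DMSO (31.7% of all genes) with a median of -0.23, against -0.21 for all genes. HOXA10 (2.12 against 4.82 FPKM, -0.90) and HOXA9 (4.82 against 9.72 FPKM, -0.88) were lowest, followed by HOXB5 and HOXC4 (-0.65 each), and HOXD9 (8.89 against 6.81 FPKM, 0.34) was highest. The log2 ratios of this library moved with base composition, with a Spearman coefficient of 0.59 between ratio and GC content over all genes and 0.54 over the members. After removal of the GC trend the members' median was -0.13 with 9 above DMSO, and after scaling libraries by their median ratio it was 0.09 with 15 above, so the direction on day 4 turned with the scaling. The named members moved too: without the GC trend HOXA10 was lowest (-0.76), HOXB6 (-0.63) and HOXB5 (-0.60) lay below HOXA9 (-0.39), HOXC4 was at -0.15 and HOXD9 at 0.07.

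NCD38-β2P4 gave 12 of 26 members above DMSO on day 30 (62.1% of all genes), with a median of -0.02 and a range from -0.30 in HOXA10 to 0.20 in HOXC10, and 9 members lay above DMSO without the GC trend and 7 after scaling. On day 4 it gave 18 of 26 (65.0% of all genes), with a median of 0.18 and extremes in HOXC9 (0.38 against 1.11 FPKM, -0.61) and HOXA10 (0.38). NCD38-β2PIPP gave 8 of 26 on day 30 (46.2% of all genes), with a median of -0.07, lowest in HOXC8 (6.09 against 8.78 FPKM, -0.46) and highest in HOXB5 (0.26). On day 4 it gave 17 of 26 (63.6% of all genes), with a median of 0.08 against 0.17 for all genes. There HOXA9 was at 18.6 against 9.72 FPKM, the largest ratio to DMSO of any member on these values (0.87, counting interval of the ratio without the added 1 from 0.74 to 1.14), and HOXC5 was lowest (3.7 against 5.49 FPKM, -0.47). Here the Spearman coefficient with GC content was -0.69 over all genes and -0.35 over the members, and after removal of the GC trend HOXA9 was at 0.59. HOXB2 with NCD38 on day 30 was then higher (0.64), and after scaling HOXA9 (0.63) was below HOXB2 (0.64) and HOXD9 with NCD38 on day 4 (0.70). After scaling, the median of NCD38-β2PIPP on day 4 turned to -0.14, with 10 members above DMSO.

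**Figure D3:**
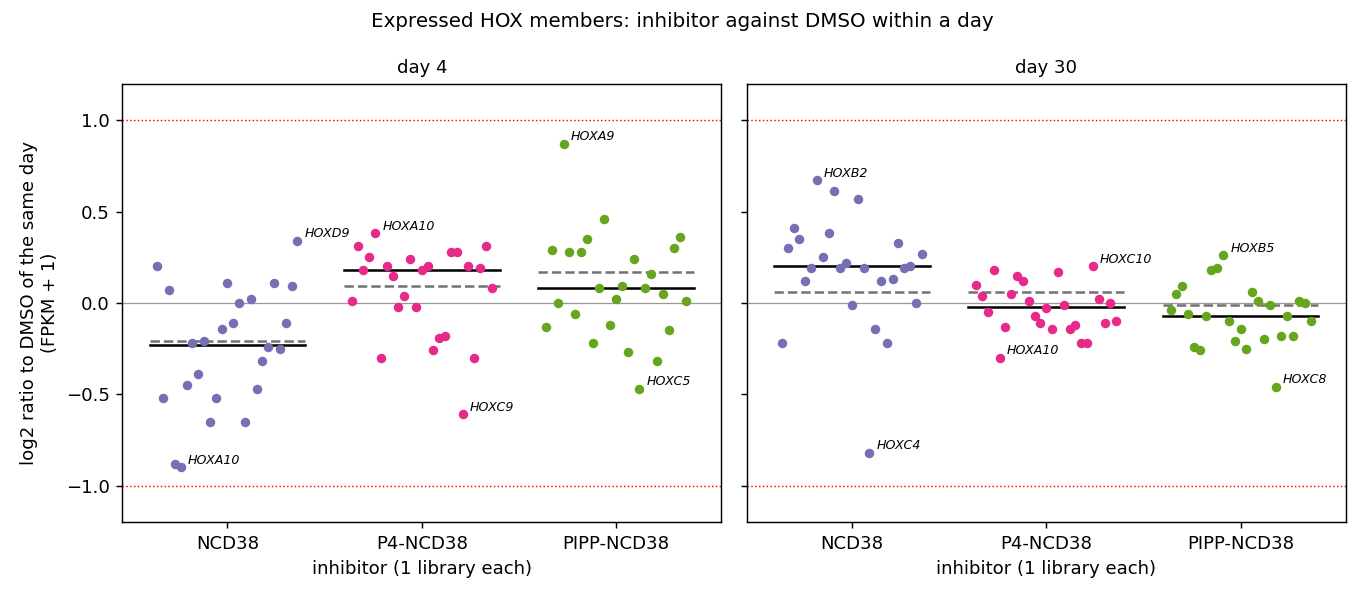
Log2 ratio of FPKM + 1 between each inhibitor library and the DMSO library of the same day for expressed members (1 point each, in cluster order). Black lines are the members' medians, dashed grey lines the medians of all expressed genes and red dotted lines the 2-fold bounds, which no member reaches; the lowest and highest member of each comparison is named.

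Genes that work with or on the HOX clusters were followed as lists. Of 23 noncoding genes of the clusters, 4 were found in the table and 2 were expressed. HOTAIRM1, a noncoding transcript of the HOXA cluster, was at 12, 8.48, 12.3 and 12.9 FPKM on day 4 and at 19.6, 37.9, 22.9 and 21.0 FPKM on day 30, higher in every day 30 library (1.05 ± 0.27, adjusted p = 0.019). HOXA11-AS1 was expressed at up to 2.06 FPKM and was not called. HOTAIR, which lies in the HOXC cluster, stayed at 0.0308 to 0.258 FPKM.

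TALE cofactors are homeodomain proteins that bind DNA together with HOX proteins, and 5 of 9 were expressed. MEIS3 led with 36.2 to 48.8 FPKM on day 4 and 22.8 to 30.1 FPKM on day 30 and was the only one called between the days (-0.68 ± 0.11, adjusted p = 0.0032). PBX2 and PBX3 were at 16 to 26.7 and 3.91 to 22.1 FPKM, and MEIS1 and PKNOX2 were listed at 0. Of 8 ParaHox and EVX genes, CDX2, the intestinal master regulator, was the expressed one at 7.48 to 11.6 FPKM, not called between the days (-0.36 ± 0.14, adjusted p = 0.065), and 6 were listed at 0. PDX1, at 0.641 to 1.65 FPKM, fell just short of the threshold with a mean of 0.999 FPKM.

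Retinoic acid is a classical inducer of HOX genes. Of 14 retinoid genes 5 were expressed, and 0 were higher and 5 lower on day 30, where 30.2% and 31.7% of all expressed genes were called higher and lower. Their median was -1.1. Among them the binding protein CRABP2 was at 32.3 to 57.0 FPKM on day 4 and 15.5 to 23.2 FPKM on day 30 (-1.1 ± 0.14, adjusted p = 0.0017). Of 12 chromatin regulators of the clusters 10 were found and expressed, with 3 higher and 2 lower on day 30, so 5 of 10 were called where 61.9% of all expressed genes were. SUZ12, a Polycomb subunit, was at 0.4 to 2.64 FPKM on day 4 and 6.55 to 8.1 FPKM on day 30 (1.96 ± 0.28, adjusted p = 0.0025). KDM1A, which encodes LSD1, was at 38.0 to 72.1 FPKM on day 4 and 39.4 to 46.1 FPKM on day 30 and was not called (-0.4 ± 0.2, adjusted p = 0.13), and MEN1, a Trithorax partner, was lower (-0.93 ± 0.11, adjusted p = 0.0012). No gene of these 5 lists was called for an inhibitor or a pair of inhibitors by limma. The part of base composition in these day differences was not tested list by list.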

How the data were processed

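RNA libraries were made by the submitters with a stranded mRNA kit. FPKM values were estimated by the authors with Cufflinks, after alignment with TopHat per their methods, and deposited as 1 table of 8 libraries. The submitters' processing notes list HISAT2 2.2.1.0, BWA 0.5.9, Cufflinks, bedtools 2.20.1 and hg19 without roles. The annotation and the strand setting are not given in the sources used here. The table gives no counts: depth was estimated from the steps of low values, and a member's fragments were read as whole where all 8 values lay within 0.05 of a multiple of 1 step, otherwise from GENCODE (release 44 on GRCh37) transcript length.

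Of 25594 entries, 90 with a repeated name were left out. Genes with a mean of at least 1 FPKM (10865) were fitted as log2(FPKM + 1) with limma 3.58.1 (trend, two-sided, Benjamini-Hochberg over all genes) in R 4.3.3, with treatment as block for the day and day as block for inhibitors. The added 1 understates changes of low genes. GC content was matched for 10172 expressed genes (93.6%). Every expressed member is named, except 1 member that enters the counts and is not reported here. The members, lists and tests were chosen with earlier results of these data known. ChIP-seq was not analysed here. Counting intervals (95%, exact binomial, Python 3.11.15 with scipy 1.17.1) cover counting error only. Alternatives covered the pseudocount, scaling, GC content, filters, blocks and left-out libraries.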

Additional observations from a re-analysis of the deposited data

Results flagged for a closer look

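In 4 of 52 groups of 4 libraries (26 members on each day), 1 library stood far from the other 3 by the gap relative to the range. For independent groups of like libraries, chance gives about 1 group in 20. Members share libraries, and the 4 libraries of a group are different treatments, so that rate does not hold here. All 4 were NCD38 libraries. The share of all expressed genes flagged, and how often NCD38 was the odd library among them, was not counted. The flags are thus no result about the members. On day 30, HOXA5 was highest with NCD38 at 9.03 FPKM, HOXB2 was highest with NCD38 at 16.4 FPKM and HOXC4 was lowest with NCD38 at 0.526 FPKM. On day 4, HOXB5 was lowest with NCD38 at 0.302 FPKM.

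The median log2 ratio of the 26 expressed members to DMSO had opposite signs on the 2 days for each inhibitor. For NCD38 it was 0.20 on day 30 and -0.23 on day 4. For NCD38-β2P4 it was -0.02 and 0.18, and for NCD38-β2PIPP -0.07 and 0.08. The medians of all expressed genes were 0.06 and -0.21 for NCD38, 0.06 and 0.09 for NCD38-β2P4, and -0.01 and 0.17 for NCD38-β2PIPP. After median-ratio scaling the sign was the same on both days for NCD38 (0.18 and 0.09) and for NCD38-β2PIPP (-0.08 and -0.14), and opposite for NCD38-β2P4 (-0.06 and 0.10). The difference between days was not tested, since each condition has 1 library.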

How the results depend on the processing

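With 1 library per condition, most limits lie in the scale of the values. The labels carry no replicate numbers, so the day comparison was paired by treatment. Without that block 8 members were higher and 8 lower on day 30. The main counts of 5 higher and 5 lower became 3 higher with a pseudocount of 0.1 or 0.01, 8 higher with median-ratio scaling, 2 higher with at least 1 FPKM in all libraries, and 16 higher and 2 lower with the GC trend removed. The GC setting also reversed HOXA11 (0.56), HOXB2 (0.2), HOXB4 (0.33), HOXB8 (0.54), HOXC5 (0.45), HOXC6 (0.19), HOXC10 (0.11), HOXC11 (0.2), HOXD3 (0.58) and HOXD9 (0.02). Of these, HOXC10 and HOXD9 had been called lower. Leaving out the 2 libraries of a treatment gave 2 to 6 higher and 2 to 10 lower. Without DMSO there were 2 higher and 3 lower, without NCD38-β2P4 2 and 2, without NCD38-β2PIPP 3 lower and without NCD38 10 lower. HOXA11 then ran from -0.2 to 0.09 and HOXB6 from -0.14 to 0.28, neither called in the 8-library fit. The median day difference of all genes tested was -0.017, and -0.263 with at least 1 FPKM in all libraries.

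No member was called for an inhibitor or a pair of inhibitors under any alternative run, left-out single libraries included (chosen after seeing the data). Within days, a pseudocount of 0.1 or 0.01 put 1 member (HOXC4) past 2-fold for NCD38 on day 30, 3 or 4 (HOXA10, HOXB5 and HOXC4, then HOXA9) on day 4 and 1 (HOXC9) for NCD38-β2P4 on day 4, all lower. With the DMSO library exchanged between the days, members past 2-fold were 4 for NCD38 on day 30 and 7 on day 4, 2 and 3 for NCD38-β2P4, and 1 and 1 for NCD38-β2PIPP, with medians of -0.01 for NCD38 and -0.13 for NCD38-β2P4 on day 30. Median-ratio scaling moved the median to 0.09 for NCD38 and -0.14 for NCD38-β2PIPP on day 4. The cause of these shifts was not tested. Of 438 alternative values, 200 summary values stayed close to those reported and 30 moved, and among single members' day differences 156 stayed on the same side of the threshold, 20 fell short of it, 19 passed it and 13 reversed.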

Other observations

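HOXD8 differed little among the day 30 libraries, with an SD of 0.0038 FPKM over 4 libraries around a mean of 2.41, against 0.246 around 1.05 on day 4. The day 30 values rest on an estimated 115, 106, 79 and 144 fragments. For NCD38-β2P4, the counting interval of the log2 ratio to DMSO on day 30 ran from -0.43 to 0.43. Counting error is thus wider than the spread seen, so the closeness is not a measure of precision. Among low members, HOXD4 held 25, 14, 8 and 25 fragments on day 30 and 4, 8, 4 and 11 on day 4, and HOXA13 held 29, 30, 20 and 21 on day 30 and 12, 7, 18 and 32 on day 4, in the order DMSO, NCD38, NCD38-β2P4 and NCD38-β2PIPP.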
